A study of Mus musculus with 96 samples.

Results

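Hikeshi, Elof1, Rgs19 and Cort are 4 of the 7394 genes in the deposited table of a spatial transcriptomic study of mouse liver. They were chosen by name because they rose on a high-fat diet to values over 100, well above the negative probe, so their values on the high-fat (HFD) against the low-fat diet (LFD) chose them. Their diet differences are therefore given as a description, without a test. Their genotype differences rest on the same mice and are also a description, and their zone differences were tested. The study asked how a partial loss of GAA, the lysosomal enzyme that breaks down glycogen, affects the liver on each diet. Livers came from 16 male mice, of a line backcrossed to C57BL/6, in 4 groups of 4, namely HetKO HFD, HetKO LFD, Wt HFD and Wt LFD. HetKO mice carried 1 disrupted and 1 intact Gaa allele, and Wt mice carried 2 intact alleles. The disruption came from LoxP sites placed around exons 4 and 5, which disrupted Gaa transcription from birth in the whole body, so the model is not restricted to the liver. All mice went onto the HFD or LFD at about 8 weeks of age and stayed on it for 15 weeks. In each liver 3 areas (AOIs) of the perivenous zone, around the central vein, and 3 of the periportal zone, around the portal triad, were collected on sections 5 µm thick by stains for Cyp2e1 and E-cadherin, which gave 96 AOIs. The deposited AOI summary gives 1 slide and scan name to all HFD livers and another to all LFD livers, so diet and slide cannot be told apart. A value is a tag count scaled so that the third quartile of all targets is 60.2 in every AOI, and n is the number of mice, each the mean of 3 AOIs. Each gene was read through its own tags, so levels are not set against each other between genes.

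The 4 genes have different functions. Hikeshi carries the chaperone Hsp70 into the nucleus during heat stress. Elof1 is a small, conserved elongation factor that travels with RNA polymerase II and takes part in transcription-coupled DNA repair. Rgs19, also called GAIP, speeds up GTP hydrolysis by inhibitory G protein alpha subunits and so shortens signaling from their receptors. Cort encodes cortistatin, a peptide hormone that resembles somatostatin and binds its receptors, and it is best known from cortical interneurons. None is used as a marker of a liver zone.

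The genes lie on different chromosomes. In GRCm38.p6 the RefSeq gene spans are chr7:89918685-89941223 for Hikeshi, chr9:22112986-22117195 for Elof1, chr2:181688419-181694537 for Rgs19 and chr4:149125034-149126763 for Cort, all on the minus strand. For Hikeshi, Elof1 and Cort the 250 bases before the RefSeq start are shown 5′ to 3′ on the gene's strand, with matches to the searched motifs in capitals. The windows are chr7:89941205-89941454, chr9:22117196-22117445 and chr4:149126764-149127013, of which the window of Hikeshi runs 19 bases into the annotated gene.
Hikeshi: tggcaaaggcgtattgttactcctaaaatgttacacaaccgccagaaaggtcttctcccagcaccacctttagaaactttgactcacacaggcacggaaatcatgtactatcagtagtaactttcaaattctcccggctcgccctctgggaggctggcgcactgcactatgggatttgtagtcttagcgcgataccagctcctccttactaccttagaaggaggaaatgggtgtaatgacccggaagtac
Elof1: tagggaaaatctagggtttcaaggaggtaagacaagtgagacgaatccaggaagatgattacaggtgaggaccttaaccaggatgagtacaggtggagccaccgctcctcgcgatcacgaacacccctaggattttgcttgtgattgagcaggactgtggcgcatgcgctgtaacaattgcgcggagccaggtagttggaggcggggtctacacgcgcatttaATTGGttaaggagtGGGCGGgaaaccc
Cort: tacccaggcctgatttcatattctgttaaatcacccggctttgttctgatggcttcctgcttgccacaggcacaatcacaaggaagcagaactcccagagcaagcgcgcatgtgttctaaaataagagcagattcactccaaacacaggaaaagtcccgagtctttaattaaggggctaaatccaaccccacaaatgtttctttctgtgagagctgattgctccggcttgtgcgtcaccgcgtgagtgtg
The motifs were searched on both strands: the TATA box as TATAAA, the CCAAT box as written, the site of Sp1 as GGGCGG, the E-box as CACGTG, the core of a heat shock element as GAANNTTC and part of the cAMP response element as TGACGT, none of which overlapped another here. Elof1 held 1 CCAAT box, 27 bases before the start, and 1 Sp1 site, 13 bases before it. Hikeshi and Cort held no match, and the window of Rgs19, which lies inside the annotated span of the gene and is not printed, held 1 Sp1 site. Of 32851 promoter windows of this length in the table, 33.9% held the CCAAT box, 32.7% the Sp1 site, 12.4% the TATA box, 6.69% the heat shock core, 6.47% the cAMP element and 6.02% the E-box. No motif was found in all 4 windows. G and C made up 48.4% of the window in Hikeshi, 52.8% in Elof1, 64.8% in Rgs19 and 48% in Cort, against a median of 52.4% over all windows.

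The AOIs had 60874 to 1772443 reads after removal of duplicates, with a median of 536938, and held 118 to 788 nuclei. Gaa, the targeted gene, averaged 44.8 ± 7.79 in HetKO and 62.2 ± 5.84 in Wt perivenous AOIs on the LFD, and 50.5 ± 7.38 against 73.4 ± 5.38 in periportal AOIs (SD, n = 4), without overlap between mice. On the HFD it averaged 41 ± 5.28 in HetKO and 46.3 ± 7.28 in Wt perivenous AOIs, and 42.6 ± 10.8 against 48.9 ± 7.99 in periportal AOIs, and the mice overlapped. Gaa passed the limit of quantitation on the HFD in 3 of 12 HetKO perivenous, 3 HetKO periportal, 1 Wt perivenous and 2 Wt periportal AOIs. On the LFD it did so in 8, 11, 12 and 12 AOIs of the same order. The HFD values thus lie near background, and the overlap does not show that the genotypes were alike. The negative probe, which has no target and measures background, was higher on the HFD in both genotypes. Its mouse means were 23.3, 26.1, 26.1 and 27.6 in HetKO HFD and 19.4, 22.8, 16.4 and 19.2 in HetKO LFD perivenous AOIs. In Wt perivenous AOIs they were 20.5, 31.8, 31.3 and 38.9 on the HFD, against 24.6, 21.7, 16 and 14.4 on the LFD. Mouse 1 of Wt HFD thus had a background in the LFD range, below mice 1 and 2 of Wt LFD. Mice 2 to 4 of Wt HFD were above every Wt LFD mouse. Summed over 10 hepatocyte markers, all above the limit of quantitation (LOQ), mouse means were 31383 to 48599.9 in HetKO mice on the HFD, 52375 to 64639.7 in HetKO mice on the LFD, 8813 to 41231 in Wt mice on the HFD and 42311 to 75272 in Wt mice on the LFD. The summed level of the 9 listed macrophage markers in the table spanned 496 to 725, 456 to 605, 401 to 666 and 407 to 566 in the same groups, and Marco was above the LOQ in fewer than 10 AOIs. In HetKO mice 9 of the 10 hepatocyte markers were lower on the HFD in perivenous (9.74% of all genes were) and 6 in periportal AOIs (5.19%), with a median log2 difference of -0.77 and -0.59. In Wt mice 8 of the 10 were lower in perivenous (12.3% of all genes) and 8 in periportal AOIs (12.7%), with a median log2 difference of -1.35 and -1.25 (adjusted p below 0.05 in limma). Of the 12 T and B lymphocyte markers 0 were in the table. The part of these measures in the diet differences was not tested, and in AOIs of mixed cells fewer cells of a type and less RNA per cell cannot be told apart.

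Hikeshi showed a wide gap between the diets, above all in Wt livers, and it was above the LOQ, the level a target must pass to be told from background, in 96 of 96 AOIs. Perivenous means of Wt mice 1 to 4 were 225, 566, 375 and 585 on the HFD, against 183, 151, 91.4 and 99.2 on the LFD. Periportal means of Wt mice 1 to 4 were 189.6, 384, 358 and 425 on the HFD, against 163, 106, 73.8 and 121 on the LFD. Every HFD mouse was above every LFD mouse in both zones, with mouse 1 lowest among the Wt HFD mice. HetKO mice had perivenous means of 221, 294, 282 and 422 on the HFD, against 150.1, 184, 112 and 169 on the LFD. HetKO mice had periportal means of 196, 262, 264 and 340.5 on the HFD, against 129, 181, 108 and 155 on the LFD. The HetKO groups did not overlap either, and mouse 4 was the highest of the HetKO HFD mice in both zones. The HFD mean was 1.98 times the LFD mean in HetKO perivenous, 1.85 times in HetKO periportal, 3.33 times in Wt perivenous and 2.92 times in Wt periportal AOIs. One AOI stood out: the third perivenous AOI of mouse Wt HFD 2 had 985 (360 recovered reads), against 353 and 358 in the other 2 AOIs of that mouse and zone, while Elof1, Rgs19 and Cort were not raised in it.

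Elof1 was the gene with the closest agreement between AOIs of a mouse. It was above the LOQ in 96 AOIs, and its highest AOI was at most 1.87 times the median of its mouse and zone. Wt mice 1 to 4 averaged 235, 351, 369 and 576 on the HFD and 184, 190.2, 112 and 129 on the LFD in perivenous AOIs. Wt mice 1 to 4 averaged 201, 343, 323 and 413 on the HFD and 179.7, 137, 86.8 and 104 on the LFD in periportal AOIs. The diets did not overlap, and mouse 1 was the lowest of the Wt HFD mice in both zones. HetKO perivenous values were 237, 274, 360.1 and 394 on the HFD, against 183, 197, 145 and 182 on the LFD. HetKO periportal values were 205, 216, 244 and 308 on the HFD, against 146, 196, 156 and 151 on the LFD. No HetKO HFD mouse fell within the LFD range in either zone, but mouse 1 on the HFD (205) and mouse 2 on the LFD (196) lay close together in periportal AOIs. The HFD mean was 1.79 and 1.5 times the LFD mean in HetKO perivenous and periportal AOIs, and 2.49 and 2.52 times in Wt perivenous and periportal AOIs.

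Rgs19 was carried in some mice by single AOIs with very high values. It was above the LOQ in 96 AOIs. Perivenous AOIs of Wt mice 1 to 4 averaged 351, 234, 273 and 317 on the HFD, against 114, 90.4, 65.6 and 139 on the LFD. Periportal AOIs of Wt mice 1 to 4 averaged 141, 259, 219 and 245 on the HFD, against 120.1, 86.9, 62.7 and 91.8 on the LFD. The Wt diets did not overlap. Mouse 1 of Wt HFD, the lowest of its group in periportal AOIs, was the highest in perivenous AOIs, where its AOIs read 177, 305 and 569.9. Perivenous AOIs of HetKO mice averaged 141, 161, 199 and 671 on the HFD, against 80.7, 114, 77.8 and 100.4 on the LFD. Periportal AOIs of HetKO mice averaged 998, 181, 242 and 183 on the HFD, against 149.5, 201, 87.2 and 116 on the LFD. In the HetKO perivenous zone all HFD mice were above all LFD mice, whereas in the periportal zone 2 of 4 HFD mice exceeded the highest LFD mouse. The mean of 998 in mouse HetKO HFD 1 rested on 1 AOI at 2694 (1253 recovered reads), beside 157 and 142. The mean of 671 in the perivenous zone of mouse HetKO HFD 4 came from AOIs at 1383, 399.6 and 229.9. By arithmetic means the HFD was at 3.14 and 2.89 times the LFD in HetKO perivenous and periportal AOIs, and at 2.87 and 2.39 times in Wt. As the mean of log2(value + 1), which weighs 1 high AOI less, the HetKO differences were 1.25 and 0.93, and the Wt differences 1.58 and 1.26.

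Cort was the only one of the 4 that missed the LOQ in any AOI (above it in 88 of 96). Its perivenous values in Wt mice 1 to 4 were 60.2, 153, 150.1 and 210.1 on the HFD and 60.7, 56.3, 48.5 and 46.2 on the LFD. Its periportal values in Wt mice 1 to 4 were 70.4, 164, 127 and 170.4 on the HFD and 65.1, 50.7, 35.2 and 38.6 on the LFD. Mouse 1 of Wt HFD stood apart from the other 3 mice of its group in both zones, and in the perivenous zone it fell within the LFD range. Its perivenous values in HetKO mice were 98.4, 109, 121 and 141 on the HFD and 55.7, 62.9, 46.5 and 66.4 on the LFD. Its periportal values in HetKO mice were 63.1, 87.3, 102 and 144 on the HFD and 58.3, 72.2, 54.1 and 54.4 on the LFD. HetKO perivenous mice did not overlap between diets, while mouse 1 of HetKO HFD fell within the LFD range in the periportal zone. The HFD mean was 2.03 and 1.66 times the LFD mean in HetKO perivenous and periportal AOIs, and 2.71 and 2.81 times in Wt. Of the 8 AOIs where Cort was not above the LOQ, 5 were Wt LFD, 2 HetKO HFD and 1 Wt HFD. Cort had only 4 recovered reads in 1 perivenous AOI of mouse Wt LFD 3, the least sequenced of all, where Hikeshi had 5, Elof1 9 and Rgs19 5 reads.

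**Figure D1:**
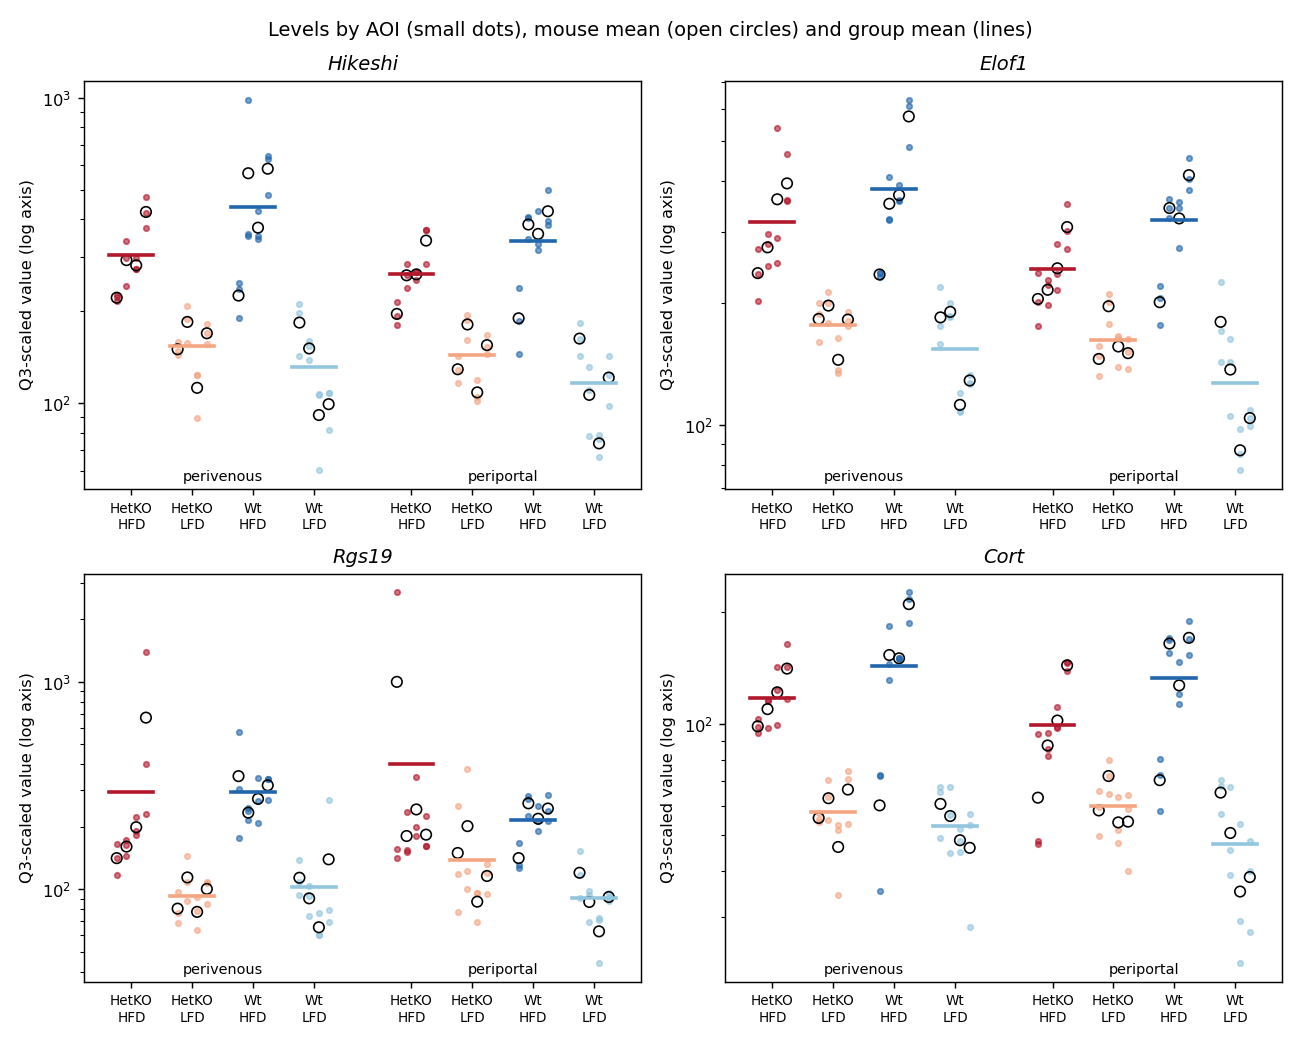
Q3-scaled value (log axis) of each gene in 96 AOIs (small dots), as mouse means (open circles) and as group means (lines) for HetKO and Wt mice on the HFD and LFD, perivenous zone left and periportal zone right. HFD mice sit above LFD mice in most panels, and Rgs19 has single AOIs at 2694 and 1383 in HetKO HFD livers.

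In the order of group means, the HFD groups came first for every gene. For Hikeshi the order was Wt HFD perivenous, Wt HFD periportal, HetKO HFD perivenous, HetKO HFD periportal, and then the 4 LFD groups, led by HetKO perivenous. Elof1 had the order Wt HFD perivenous, Wt HFD periportal, HetKO HFD perivenous and HetKO HFD periportal, followed by the LFD groups. For Rgs19 the order on the HFD began with HetKO periportal, where the SD of 399 was as large as the mean of 401, and for Cort with Wt perivenous. Within a diet, neighbouring groups in these orders differed by no more than the larger of their SDs, except that Elof1 averaged 316 ± 73.1 in perivenous and 243 ± 46.2 in periportal AOIs of HetKO HFD mice (SD, n = 4).

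Mouse means of HFD and LFD did not overlap in 13 of the 16 combinations of gene, genotype and zone. Over all 6805 genes tested, HFD mice were above all LFD mice in 13.3% of genes in HetKO perivenous, 7.41% in HetKO periportal, 10.7% in Wt perivenous and 13.2% in Wt periportal AOIs. Since the genes were chosen on this contrast, no more is read from their count. Genes called higher on the HFD in limma (adjusted p below 0.05 and a log2 difference of 0.80 or more) numbered 330 in Wt perivenous (4.85%) and 418 in Wt periportal AOIs (6.14%), and 15 (0.22%) and 7 (0.103%) in the HetKO zones. An HFD mean over 100 was reached by 3 of the 15 in HetKO perivenous, 2 of the 7 in HetKO periportal, 7 of the 330 in Wt perivenous and 6 of the 418 in Wt periportal AOIs, beside 650, 659, 406 and 435 of all 6805 genes tested. Beside the 4 genes those of Wt mice were H2bu2, Rara and, in perivenous AOIs only, Rgs13. Just inside the threshold in perivenous AOIs were Rgs13 at 102 on the HFD and 55.2 on the LFD, Rara, a retinoic acid receptor, at 127 and 59, and the histone gene H2bu2 at 138 and 62.5. Just outside were Ralb at 92.1 on the HFD and 48.4 on the LFD, Phc3 at 90.7 and 30.6, and Sh3pxd2b at 87.7 and 45.5. In periportal AOIs Rara at 119.6 on the HFD and 53.8 on the LFD, H2bu2 at 128 and 62.4 and Cort at 133 and 47.4 lay just inside, and Rgs13 at 92 and 47.6, Rab6b at 91.9 and 43.2 and Lcn2 at 89.5 and 30.7 just outside. By its log2 difference on the HFD, Hikeshi ranked 1 of 6805 genes in Wt perivenous and 3 in Wt periportal AOIs, Rgs19 ranked 2 and 18, Cort 4 and 4, and Elof1 7 and 8. In HetKO mice the ranks were 7 and 5 for Hikeshi, 1 and 4 for Rgs19, 4 and 36 for Cort and 22 and 119 for Elof1.

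The negative probe moved in the same direction as the genes. Its HFD mean was 1.32 times the LFD mean in HetKO perivenous, 1.27 times in HetKO periportal, 1.60 times in Wt perivenous and 1.81 times in Wt periportal AOIs. Divided by the probe of the same AOI, Hikeshi averaged 13.9 ± 3.08 times the probe in Wt HFD and 6.77 ± 0.757 times in Wt LFD perivenous AOIs (SD, n = 4). Elof1 averaged 12.3 ± 1.72 and 8.07 ± 0.957 times the probe in the same groups. Rgs19 averaged 10.3 ± 4.47 and 5.71 ± 2.83 times, and Cort 4.49 ± 1.08 and 2.82 ± 0.342 times. All 4 genes thus kept a higher HFD mean on this scale, with smaller differences than in the scaled values. Over the 16 combinations the HFD over LFD ratio was 1.5 to 3.33 for the scaled values and 1.18 to 2.45 after division by the probe, and it stayed above 1 in 16. The mouse values did not overlap in 13 combinations before division and in 11 after it. The share of all genes without overlap was not counted after division, and the genes were chosen on this contrast, so nothing is read from these counts. Of all genes tested, 9.76% had a higher HFD mean after division by the probe in Wt perivenous, 5.11% in Wt periportal, 12% in HetKO perivenous and 12.4% in HetKO periportal AOIs. Counted as reads per nucleus, where depth is not scaled, the ratio of HFD to LFD means was 1.03 to 4.15. The mean of the logs on that scale was lower on the HFD in 2 of 16 combinations, Elof1 by -0.29 and Cort by -0.19 in HetKO periportal AOIs.

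**Figure D2:**
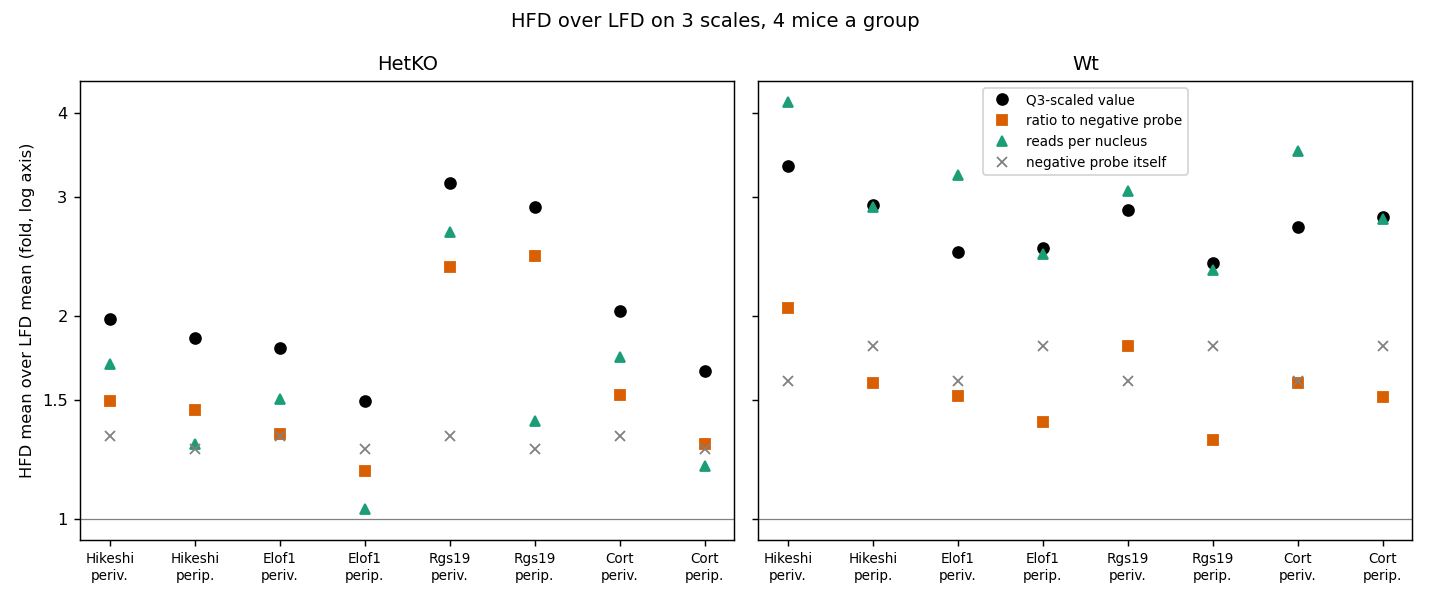
HFD mean over LFD mean (fold, log axis, 4 mice a group) of each gene and zone in HetKO (left) and Wt (right), as scaled value, as ratio to the negative probe, as reads per nucleus, and for the probe itself. The ratio to the probe lies below the scaled value in all 16 combinations and above 1 in all of them.

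Within a group the genes followed the background of the mouse. Signal over background (median gene value divided by the probe) averaged 1.60 ± 0.37 in Wt HFD and 2.18 ± 0.35 in Wt LFD perivenous AOIs, and 1.63 ± 0.33 and 2.56 ± 0.45 in periportal AOIs (SD, n = 4). In HetKO livers it averaged 1.78 ± 0.09 on the HFD and 2.12 ± 0.18 on the LFD in perivenous, and 1.93 ± 0.16 and 2.23 ± 0.11 in periportal AOIs. Pearson r between the log2 level and log2 signal over background, over the 12 AOIs of 4 mice in each of the 8 groups and zones, was negative in 8 of 8 for Hikeshi (-0.90 to -0.39), Elof1 (-0.98 to -0.46) and Cort (-0.94 to -0.45). For Rgs19 it was negative in 6 of 8 (-0.86 to 0.05). Against the probe itself, r was 0.34 to 0.90 for Hikeshi, 0.61 to 0.97 for Elof1, 0.58 to 0.94 for Cort and -0.12 to 0.84 for Rgs19. The points share libraries and the scale factor of their AOI, the probe is part of the ratio, and AOIs of a mouse are not independent, so these are descriptions. Few AOIs of the diets shared a range of signal over background. In Wt perivenous AOIs the shared range, 1.77 to 2.20, held 3 HFD AOIs, all of mouse 1, and 6 LFD AOIs of 2 mice. There Hikeshi had a median of 237 in HFD (190.1 to 248) and 157 in LFD AOIs (139 to 211). Elof1 had a median of 237 in HFD (231 to 237) and 186 in LFD AOIs (159 to 219). Rgs19 had a median of 305 in HFD (177 to 569.9) and 99.1 in LFD AOIs (74.1 to 139). Cort had a median of 72.2 in HFD (35.4 to 72.9) and 61.1 in LFD AOIs (44.7 to 67.5). All 4 genes had a higher median in the HFD AOIs of that range. The Elof1 and Rgs19 values of the diets did not overlap there, and those of Hikeshi and Cort did. The share of all genes without overlap was not counted in these AOIs. In HetKO periportal AOIs the shared range, 2.00 to 2.20, held 4 AOIs of 2 mice on each diet, and Hikeshi had a median of 204 in HFD (181 to 262) and 174 in LFD AOIs (143 to 195). Elof1 had a median of 215 in HFD (176 to 237) and 189 in LFD AOIs (132 to 211). Rgs19 had a median of 156 in HFD (142 to 2694) and 112 in LFD AOIs (77.9 to 381). Cort had a median of 71 in HFD (47.3 to 94.6) and 68.4 in LFD AOIs (49.8 to 79.9). In Wt periportal AOIs 2 HFD and 3 LFD AOIs of 1 mouse each were left, with medians of 165 on the HFD and 162 on the LFD for Hikeshi, 191 and 171 for Elof1, 129 and 118 for Rgs19 and 65.4 and 67.7 for Cort. In HetKO perivenous AOIs 2 AOIs of 1 mouse were left on each diet, with medians of 224 on the HFD and 173 on the LFD for Hikeshi, 219 and 206 for Elof1, 141 and 98.4 for Rgs19 and 96.1 and 66.9 for Cort. The HFD AOIs of both Wt ranges came from mouse 1, the lowest Wt HFD mouse for Hikeshi, Elof1 and Cort. Every range holds 1 or 2 mice a diet, and the genes were chosen on this contrast. Nothing is therefore read from the size, direction or overlap of these gaps.

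**Figure D3:**
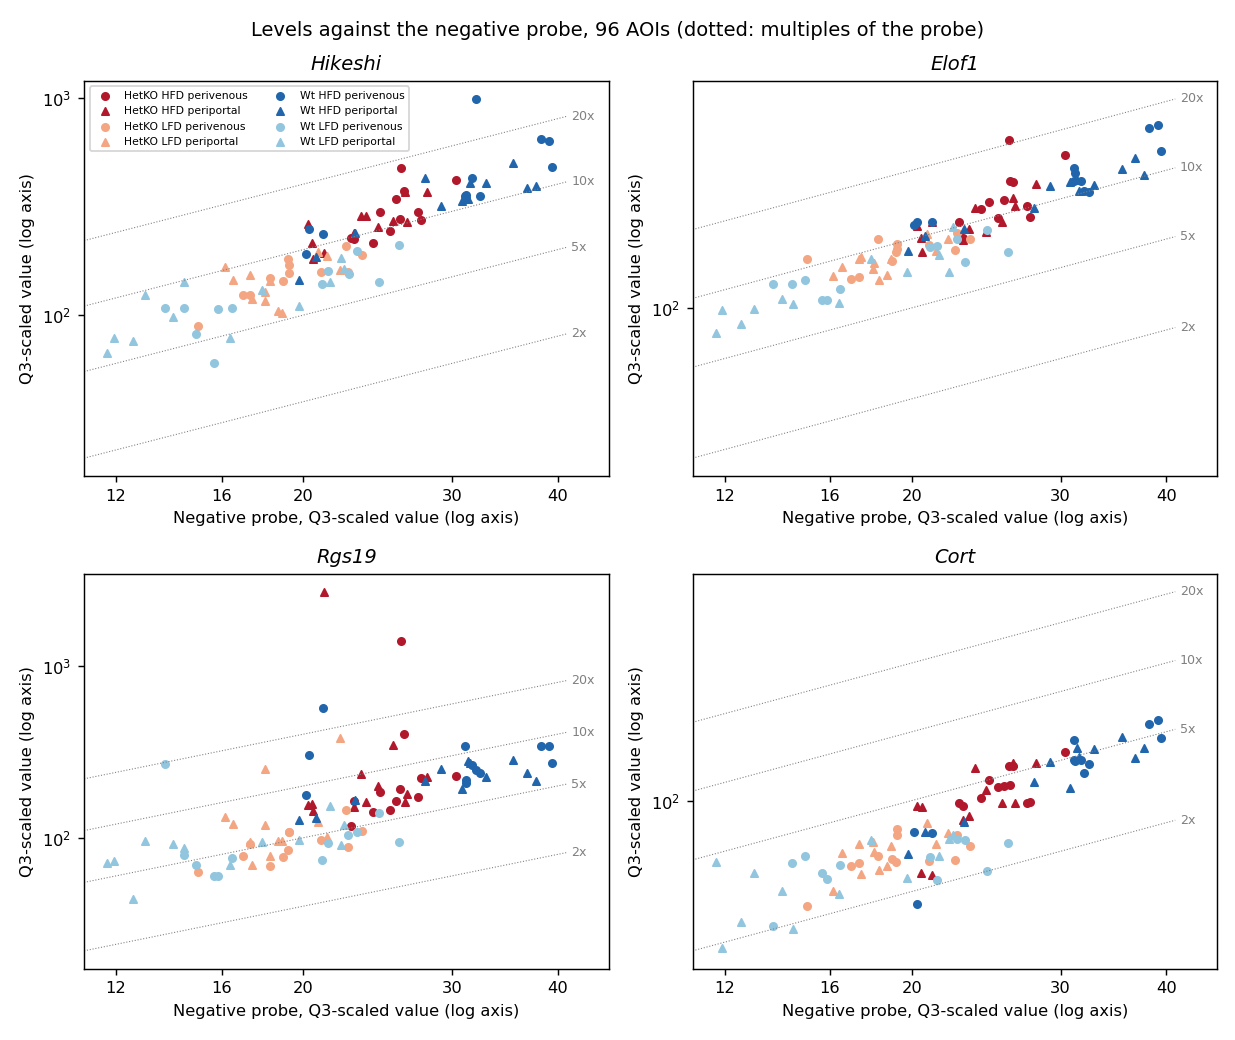
Q3-scaled value of each gene against the Q3-scaled value of the negative probe in the same AOI (both log axes, 96 AOIs), with dotted lines at multiples of the probe. Hikeshi, Elof1 and Cort climb with the probe within and across groups, and the Rgs19 AOIs at 2694 and 1383 sit off that trend.

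The AOIs of a mouse agreed well for 3 of the genes. The highest of the 3 AOIs was at most 2.75 times the median AOI for Hikeshi, 1.87 times for Elof1 and 1.95 times for Cort, over 32 sets of 3. Rgs19 reached 17.2 times, and in 4 of 32 sets it was 3 times or more. Among all 6805 genes tested, 0.0464% of sets reached 3 times and 93 genes did so at least once, but Rgs19 was the only gene with 4 such sets; the factor 3 was set after the values were seen. The 4 Rgs19 AOIs were 1 periportal AOI of mouse HetKO HFD 1 (2694), 1 perivenous AOI of HetKO HFD 4 (1383), 1 periportal AOI of HetKO LFD 2 (381) and 1 perivenous AOI of Wt LFD 4 (269). They held 1253, 1103, 190 and 219 recovered reads of Rgs19, so counting error was small. They lay in different mice, groups and zones, and 4, 0, 2 and 6 other genes reached 3 times in the same sets. Signal over background in them was 2.03, 1.78, 2.00 and 2.69. The SD of log2 levels within a mouse exceeded that between mice for Rgs19 in HetKO HFD periportal AOIs (1.25 and 0.53), whereas for Elof1 in Wt HFD perivenous AOIs it was 0.15 within and 0.52 between mice.

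**Figure D4:**
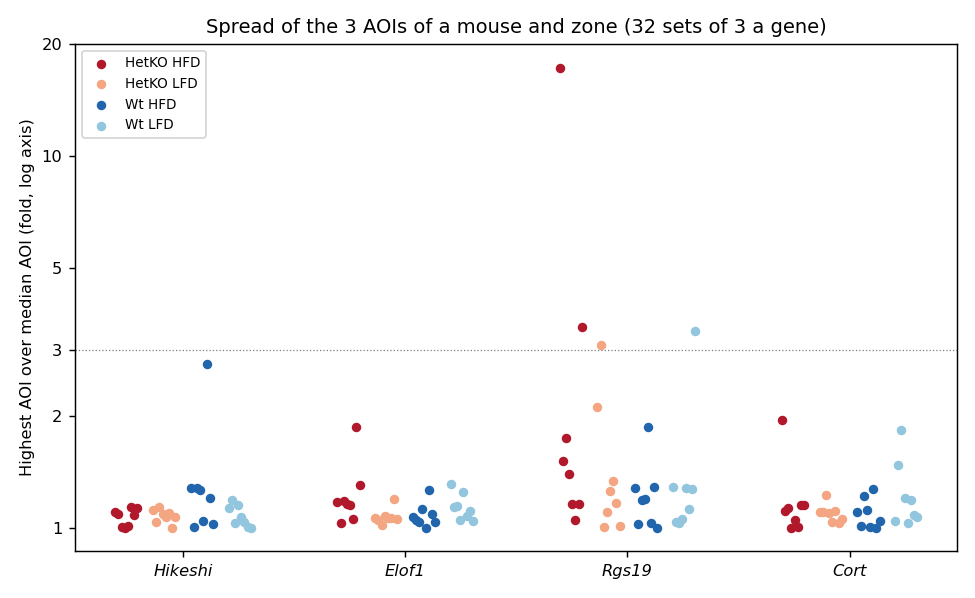
Highest AOI over the median AOI (fold, log axis) in each of the 32 sets of 3 AOIs of a mouse and zone, by gene and group, with a dotted line at 3. Rgs19 has 4 sets above the line, the highest at 17.2, and the other genes have 0.

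The HetKO and Wt mice were compared within each diet and zone. These differences use the diet values that chose the genes: all 4 were called rises over 100 in both Wt zones, against 3 in HetKO perivenous and 2 in HetKO periportal AOIs, so the choice leans towards lower HetKO values on the HFD and higher ones on the LFD. They are given as a description, with 95% intervals from limma (4 mice a group) and no p. Over the whole table no gene was called in any of the 4 comparisons, nor had any an adjusted p below 0.05 (0% of 6805 genes, limma with Benjamini-Hochberg adjustment). Unadjusted p below 0.05 was reached by 992 genes (14.6%) in HFD periportal, 1019 (15%) in HFD perivenous, 222 (3.26%) in LFD periportal and 95 (1.4%) in LFD perivenous AOIs. On the HFD the HetKO minus Wt difference in log2(value + 1) in perivenous AOIs was -0.41 (95% interval -1.0 to 0.18) for Hikeshi, -0.25 (95% interval -0.78 to 0.27) for Elof1, -0.36 (95% interval -1.05 to 0.32) for Rgs19 and -0.15 (95% interval -0.82 to 0.52) for Cort. In periportal AOIs it was -0.31 (95% interval -0.82 to 0.21) for Hikeshi, -0.37 (95% interval -0.82 to 0.08) for Elof1, 0.15 (95% interval -0.38 to 0.69) for Rgs19 and -0.42 (95% interval -1.02 to 0.19) for Cort. The negative probe's own differences were -0.21 in perivenous and -0.30 in periportal AOIs. On the LFD the perivenous differences were 0.28 (95% interval -0.22 to 0.77) for Hikeshi, 0.22 (95% interval -0.18 to 0.63) for Elof1, -0.03 (95% interval -0.45 to 0.39) for Rgs19 and 0.13 (95% interval -0.22 to 0.49) for Cort, beside 0.04 for the probe. The periportal differences were 0.34 (95% interval -0.14 to 0.83) for Hikeshi, 0.41 (95% interval -0.03 to 0.84) for Elof1, 0.49 (95% interval 0.01 to 0.96) for Rgs19 and 0.39 (95% interval -0.04 to 0.82) for Cort, beside 0.20 for the probe. Of the 16 intervals, which are not adjusted for their number, 15 span 0 and that of Rgs19 in LFD periportal AOIs does not. The intervals reach down to -1.05 on the HFD and up to 0.96 on the LFD, so they allow differences beyond the 0.80 needed for a call. The HFD comparisons depended on mouse Wt HFD 1, the one with a low background. Without it, 411 genes were called in HFD periportal and 418 in HFD perivenous AOIs. The HetKO minus Wt difference was then -0.69 in perivenous and -0.57 in periportal AOIs for Hikeshi, -0.46 and -0.58 for Elof1, -0.31 and -0.04 for Rgs19 and -0.54 and -0.70 for Cort.

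Between the zones of the same mice, perivenous values of Hikeshi and Elof1 were somewhat above periportal ones, but no difference was called. The log2 difference with the mouse as a block was, for Hikeshi, 0.19 (95% interval -0.05 to 0.43) in HetKO HFD, 0.10 (95% interval -0.10 to 0.31) in HetKO LFD, 0.29 (95% interval 0.02 to 0.57) in Wt HFD and 0.17 (95% interval -0.15 to 0.48) in Wt LFD mice. Hikeshi was higher in perivenous AOIs in 15 of 16 mice. For Elof1 it was 0.35 (95% interval 0.11 to 0.59), 0.12 (95% interval -0.10 to 0.35), 0.23 (95% interval -0.05 to 0.51) and 0.30 (95% interval 0.01 to 0.59) in the same groups, with 15 of 16 mice higher in perivenous AOIs. The adjusted p of both genes was 0.11 or more in limma. The negative probe's own differences were 0.12 on the HFD and 0.06 on the LFD in HetKO mice, and 0.03 on the HFD and 0.21 on the LFD in Wt mice, and it was higher in perivenous AOIs in 13 of 16 mice. Cort differed by 0.31 (95% interval 0.04 to 0.57) in HetKO HFD, -0.05 (95% interval -0.28 to 0.19) in HetKO LFD, 0.04 (95% interval -0.26 to 0.34) in Wt HFD and 0.21 (95% interval -0.10 to 0.51) in Wt LFD mice. Rgs19 was the only one with an adjusted p below 0.05: in HetKO LFD mice it was lower in perivenous than in periportal AOIs by -0.42 (95% interval -0.66 to -0.17), adjusted p = 0.042 in limma, lower in 4 of 4 mice. The size was under the 0.80 needed for a call. In that group 474 of 6805 genes (6.97%) had an adjusted p below 0.05 and 136 were called (2%), against 4.83% and 1.76% in HetKO HFD, 1.9% and 1.16% in Wt HFD and 5.48% and 2.51% in Wt LFD mice. The mouse means there were 80.7, 114, 77.8 and 100.4 in perivenous and 149.5, 201.5, 87.2 and 116 in periportal AOIs. The 2 mice with the largest gaps, 1 and 2, were those with a single high periportal AOI. For mouse 1 that AOI, periportal AOI 3, was on the plate of all other mice, and its other 5 AOIs were on another plate. Zones were not compared without those 5 AOIs, so the part of the plate in this difference was not tested. Without mouse 1 the adjusted p was 0.30, without mouse 2 it was 0.20, and with the median of the 3 AOIs 0.16 (limma). In the other groups Rgs19 differed by -0.09 (95% interval -0.64 to 0.45) in HetKO HFD, 0.42 (95% interval 0.05 to 0.79) in Wt HFD and 0.10 (95% interval -0.19 to 0.39) in Wt LFD mice. Whether the zone difference depended on genotype was tested per gene and diet by a two-sided exact permutation of 4 HetKO against 4 Wt mice, 8 tests, whose smallest possible p is 0.029. With mouse HetKO LFD 1 included, Rgs19 on the LFD reached it. Its mean zone differences were -0.42 ± 0.28 in HetKO and 0.10 ± 0.16 in Wt mice (SD, n = 4 each, exact permutation). Its adjusted p was 0.23, the value that a lone p of the smallest size takes over 8 tests, so this design could not bring it below 0.05. The other 7 had exact p of 0.20 or more and an adjusted p of at least 0.42.

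**Figure D5:**
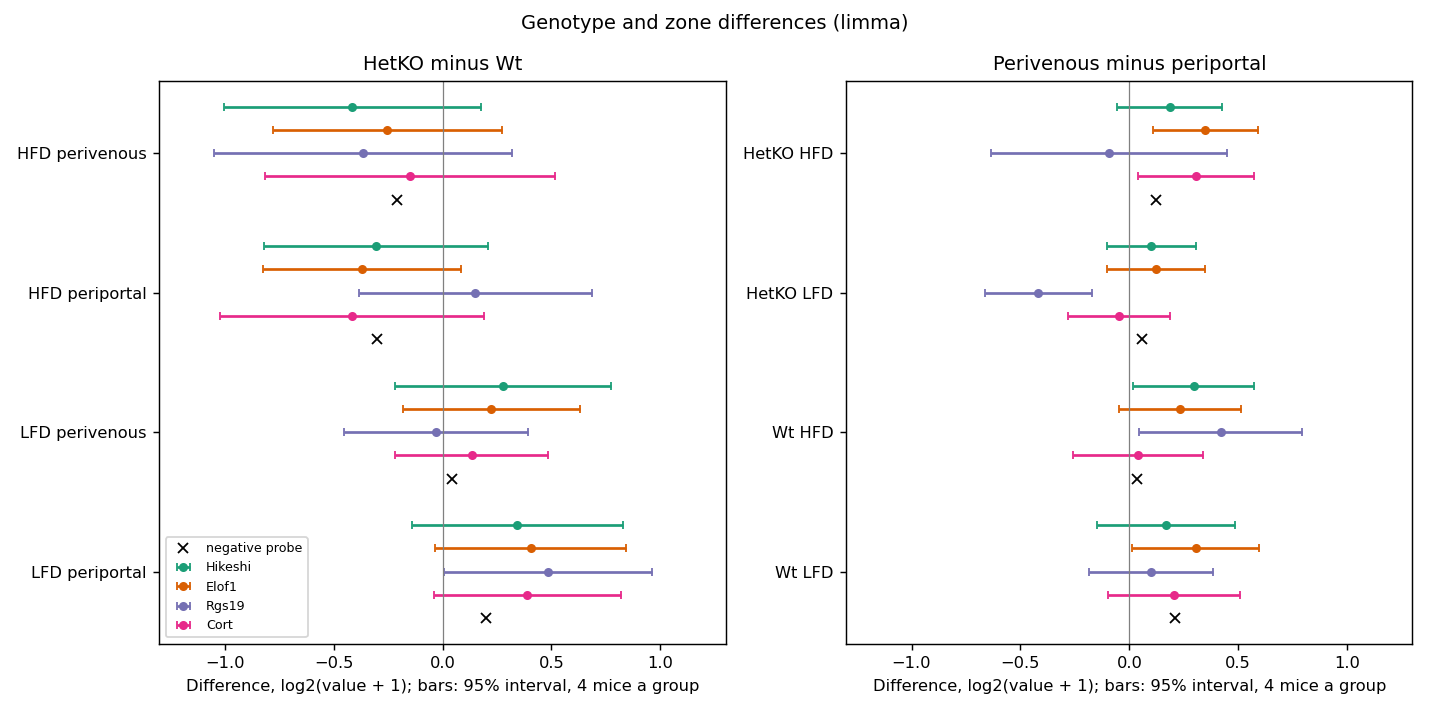
Difference in log2(value + 1) for HetKO minus Wt (left) and perivenous minus periportal (right), with 95% intervals from limma (4 mice a group), and the negative probe's own difference as crosses. Most intervals span 0. Between zones, that of Rgs19 lies below 0 in HetKO LFD mice (-0.66 to -0.17) and above it in Wt HFD mice (0.05 to 0.79). Those of Elof1 in HetKO HFD and Wt LFD, Hikeshi in Wt HFD and Cort in HetKO HFD mice also lie above 0. By genotype, that of Rgs19 in LFD periportal AOIs lies above 0 (0.01 to 0.96).

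Hikeshi, Elof1 and Cort varied together, and Rgs19 had lower correlations with them. After subtracting the mean of each group and zone, Pearson r over 32 mouse and zone means was 0.90 for Hikeshi and Elof1, 0.87 for Hikeshi and Cort and 0.89 for Elof1 and Cort, against 0.47, 0.48 and 0.24 for Rgs19 with Hikeshi, Elof1 and Cort. The negative probe gave 0.88 with Hikeshi, 0.93 with Elof1, 0.88 with Cort and 0.35 with Rgs19. Over the 96 AOIs r was 0.71, 0.63 and 0.72 for the 3 pairs and 0.03 to 0.30 with Rgs19. These means share scale factors and come from 16 mice, so r is a description. Among 6805 genes, the profile nearest to Hikeshi over the 32 means was Elof1 (r = 0.97), followed by Rgs13 (0.96), Cort (0.96), Rad54l (0.95) and Rara (0.95). Nearest to Elof1 were Hikeshi (0.97), Rgs13 (0.96), H2bu2 (0.96), Cort (0.96) and Cldn17 (0.95). Nearest to Cort were Cfap73 (0.96), Elof1 (0.96), Hikeshi (0.96), H2bu2 (0.95) and Pifo (0.95). Nearest to Rgs19 were Col4a6 (0.86), Rabl6 (0.85), Pld3 (0.85), Rad54l (0.85) and Rasl10b (0.85), and Hikeshi was in place 11. The probe reached 0.94 with Hikeshi, 0.96 with Elof1, 0.95 with Cort and 0.73 with Rgs19. With group means subtracted, the nearest to Hikeshi were 4930564C03Rik (0.94), Ptx4 (0.92), Rgs13 (0.91), Rhbdl2 (0.91) and Elof1 (0.90), and to Elof1 H2bu2 (0.96), Pik3ca (0.93), Lypd8l (0.92), Rgs13 (0.91) and Catip (0.91). For Cort they were Cfap73 (0.90), Lypd8l (0.89), Elof1 (0.89), 4930544G11Rik (0.89) and 4930564C03Rik (0.89), and for Rgs19 Pld3 (0.69), Dcun1d2 (0.65), Pkm (0.62), Timm50 (0.61) and 2310002L09Rik (0.61). Rgs13 and H2bu2 were again genes near the threshold of the choice.

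Genes related to the 4 by function were counted by list. List members were counted at an adjusted p below 0.05 in limma, and in Wt mice 10.2% of genes rose and 12.3% fell in perivenous AOIs, against 15.4% and 12.7% in periportal AOIs. Of 27 heat shock proteins and Hsp70 partners tested, 0 rose and 8 fell in Wt perivenous AOIs, and 0 rose and 7 fell in Wt periportal AOIs. The median log2 difference was -0.42 and -0.24, beside 0.09 and 0.11 over all genes. This list is wider than the Hsp70 that Hikeshi carries and holds mitochondrial chaperones. Hspa9, the mitochondrial Hsp70, averaged 70.2 ± 38.4 on the HFD and 169 ± 65.8 on the LFD in Wt perivenous AOIs (SD, n = 4 each), adjusted p = 0.018 in limma. Hspd1, the mitochondrial chaperonin Hsp60, averaged 54.7 ± 26.5 on the HFD and 115 ± 33.5 on the LFD (adjusted p = 0.022 in limma). Dnaja1 averaged 91.1 ± 31 on the HFD and 184 ± 54.5 on the LFD (adjusted p = 0.019 in limma); it encodes a J-domain co-chaperone of Hsp70. In HetKO mice 0 rose and 9 fell in perivenous AOIs, and 1 rose and 6 fell in periportal AOIs, beside 9.74% and 5.19% of all genes that fell. After subtraction of the negative probe the median of the list was -1.89 in Wt perivenous and -1.37 in Wt periportal AOIs, beside -1.02 over all genes in each. Of 26 nuclear import and pore genes tested, 0 rose and 1 fell in Wt perivenous (Ipo7) and 1 rose and 0 fell in Wt periportal AOIs (Nup155), and in HetKO perivenous AOIs Nup155 and Nup98 rose. Nup155 averaged 47.7 and Nup98 44.9 on the HFD in HetKO perivenous AOIs, below the mean LOQ there of 50.6. Their log2 differences were 0.47 and 0.34, beside 0.39 for the negative probe. Nup155 averaged 46 on the HFD in Wt periportal AOIs, below the mean LOQ there of 63.7. Its log2 difference was 0.61, beside 0.82 for the probe.

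Of 34 transcription elongation genes tested, 3 rose and 0 fell in Wt periportal AOIs, and 0 rose and 2 fell in Wt perivenous AOIs. The 3 were Polr2d and Polr2h, subunits of RNA polymerase II, and Ccnt1, a cyclin of the elongation kinase P-TEFb. Polr2d averaged 46.6 ± 6.58 on the HFD and 26.7 ± 4.96 on the LFD (SD, n = 4 each), adjusted p = 0.013 in limma. Polr2d was above the LOQ in only 11 AOIs of the series. Its HFD mean lay below the mean LOQ of Wt HFD periportal AOIs, 63.7. The log2 differences of Polr2d, Ccnt1 and Polr2h were 0.79, 0.61 and 0.57 there, beside 0.82 for the negative probe. Aff4 and Elob were the 2 that fell in perivenous AOIs. In HetKO mice Ccnt2, another P-TEFb cyclin, rose and Elob and Hexim1 fell in periportal AOIs, and Ccnt1 rose in perivenous AOIs. Of 8 transcription-coupled repair genes tested, 1 rose in each Wt zone, Rpa2, a subunit of the single-strand DNA binding complex. Rpa2 averaged 57.4 ± 7.41 on the HFD and 33.8 ± 6.98 on the LFD in periportal AOIs (adjusted p = 0.010 in limma), and Lig1 rose in HetKO perivenous AOIs. This HFD mean of Rpa2 also lay below the mean LOQ of 63.7. Lig1 averaged 45.6 on the HFD, below the mean LOQ of HetKO HFD perivenous AOIs, 50.6. Its log2 difference was 0.41, beside 0.39 for the probe. In Wt mice Rpa2 had a log2 difference of 0.79 in periportal and 0.69 in perivenous AOIs, beside 0.82 and 0.65 for the negative probe. Rgs19 belongs to the RGS family of regulators. Of 12 other members tested, 9 rose and 0 fell in Wt periportal, 4 rose and 0 fell in Wt perivenous, 8 rose and 0 fell in HetKO perivenous and 2 rose and 0 fell in HetKO periportal AOIs. In HetKO mice 12.4% of all genes rose in perivenous and 3.63% in periportal AOIs. The median log2 difference of the family was 0.75 in Wt periportal and 0.65 in Wt perivenous AOIs, beside 0.11 and 0.09 over all genes and 0.82 and 0.65 for the negative probe. Division by the probe moves all genes of an AOI alike, and the medians were then -0.10 and -0.01, beside -0.73 and -0.57 over all genes. The distance of the family from all genes was 0.64 in Wt periportal AOIs before and after division, and 0.56 in Wt perivenous AOIs both times. On that scale 0 of 12 rose in either Wt zone (0.0588% of all genes rose in periportal and 0.147% in perivenous AOIs), and 2 fell in periportal AOIs (54.9% of all genes fell). The count in Wt perivenous AOIs, 4 of 12, was lower with mouse Wt HFD 1 than without it, where 10 of 12 rose (21.4% of all genes did). Rgs17 averaged 67.1 ± 16.3 on the HFD and 32.8 ± 6.51 on the LFD in Wt periportal AOIs (SD, n = 4 each, adjusted p = 0.0084 in limma), and Rgs2 averaged 77.2 ± 13.8 on the HFD and 41.3 ± 9.5 on the LFD in Wt perivenous AOIs (adjusted p = 0.015 in limma). Rgs13 rose in both Wt zones by the scaled values. Of 13 G protein subunits and partners, 0 rose and 3 fell in each Wt zone. This list is wider than the inhibitory alpha subunits on which Rgs19 acts, and holds other alpha subunits and beta and gamma subunits. Gnas averaged 176 ± 132 on the HFD and 349 ± 62.9 on the LFD in Wt perivenous AOIs (adjusted p = 0.032 in limma); it encodes the stimulatory alpha subunit. Gng5 fell in both Wt zones, Gna12 in perivenous and Gnb2 in periportal AOIs. In HetKO mice Ric8b rose and Gnas fell in perivenous AOIs. Ric8b averaged 40.4 on the HFD there, below the mean LOQ of 50.6. Its log2 difference was 0.48, beside 0.39 for the probe. Of the 10 other genes of the somatostatin and cortistatin system 0 were in the table, so the receptors of Cort were not analysed here. Of 28 neuropeptide and interneuron genes 2 were tested, the opioid precursors Penk and Pdyn. Penk averaged 58.9 ± 16.3 on the HFD and 31.9 ± 7.37 on the LFD in Wt perivenous AOIs (SD, n = 4 each, adjusted p = 0.025 in limma) and rose in both Wt zones, while Pdyn rose in Wt periportal AOIs. Both rose in HetKO perivenous AOIs, and after division by the probe, where 0.0588% to 0.411% of all genes rose, 0 passed the test in any of the 4 comparisons. The lists were drawn up with earlier results of these data known.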

How the data were processed

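Spatial libraries were made from formalin-fixed liver with the GeoMx mouse whole transcriptome panel, in which light releases the tags of probes bound in a chosen AOI. Per the labels the build was mm10. The authors counted tags with GeoMx NGS Pipeline 2.3.3.10 after removing duplicates, and deposited scaled counts, one value per target and AOI. The methods describe a normalization to nuclei, but in the file the third quartile was 60.2 in every AOI. The authors also deposited nuclei and read counts, sequencing saturation as a percent, and the negative probe signal and LOQ per AOI. Dividing by the worth of 1 read gave whole reads for 99.9% of values (tolerance 0.01) and for all 384 values of the 4 genes. Another 7 per-sample columns were not used.

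A gene was tested when 10 or more of the 96 AOIs held it above the LOQ (6805 genes). limma 3.58.1 in R 4.3.3 was fitted on the compared groups only, to the mean log2(value + 1) of the 3 AOIs that a mouse had in a zone; tests between zones held the mouse as a block. Calls needed an adjusted p below 0.05 (Benjamini-Hochberg) and a log2 difference of 0.80. The alternatives were DESeq2 1.42.0 and edgeR 4.0.16 (TMM or upper quartile) on recovered reads summed over AOIs, reads per nucleus, division by or subtraction of the negative probe, pseudocount 10, no filter or a filter of 48 AOIs, 1 fit of all groups, a block for the mouse number, the log of the mean, and leaving out each mouse. The median AOI and leaving out 5 AOIs of HetKO LFD 1 on another plate were added after seeing the data. The fits were tested on simulated data. Named genes were the 4 genes, the negative probe, Gaa, the 5 nearest profiles, the rises nearest to 100, up to 4 genes per list with the smallest adjusted p, and each list gene where 5 or fewer passed. The genes and lists were chosen with earlier results of these data known. Depth was 60874 to 1772443 deduplicated reads per AOI, and the 4 mice a group limit the precision. Promoter sequences and spans are those of RefSeq (GRCm38.p6), where all 4 genes matched by symbol.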

Additional observations from a re-analysis of the deposited data

Results flagged for a closer look

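In the groups of 4 mice, Rgs19 had a mouse far from the others in 2 of the 32 groups examined (4 genes, 8 groups and zones). About 1 in 20 groups of independent, normally distributed values is flagged by chance. The groups here share mice, and whether 2 exceeds chance was not tested. In HetKO HFD periportal AOIs mouse 1 averaged 997.6, and the gap to the next mouse was 0.924 of the whole range. In HetKO HFD perivenous AOIs mouse 4 averaged 671, with a gap of 0.891 of the range. The periportal mean of mouse 1 rests on 1 AOI of 3, at 2694. The perivenous mean of mouse 4 was raised by an AOI at 1383, beside 399.6 and 229.9. These 2 AOIs also lay above every AOI of the other mice of that group, of which the highest was 222. Hikeshi, Elof1 and Cort had 0 such groups.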

How the results depend on the processing

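The log2 differences of the 4 genes kept their direction in 323 of 344 alternative values between diets without moving by more than 1 SD, and moved or turned in 21. No filter, the filter of 48 AOIs, 1 fit of all groups and the replicate block could not change a diet difference, and each gave 16 of these values. The genes were also chosen on this contrast, so the count does not measure how firm the rises are. Between genotypes and zones, 325 of 344 and 258 of 272 values kept direction and side of the threshold. The depth limits Cort most, which had as few as 4 reads in an AOI.

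Reads per nucleus shifted the median log2 difference of all genes by -0.84 between diets in HetKO periportal AOIs, by 0.77 in LFD periportal AOIs of HetKO against Wt, where 4047 genes were called and the 4 genes differed by 1.12 to 1.26, and by 0.70 between zones in HetKO HFD, where 2224 were called and Hikeshi (0.91), Elof1 (1.07) and Cort (1.02) passed. The call counts were 1 in LFD perivenous AOIs of HetKO against Wt, 44 between zones in HetKO LFD, 43 in Wt LFD and 15 in Wt HFD, and between diets 0 in HetKO perivenous, 24 in HetKO periportal, 1 in Wt perivenous and 322 in Wt periportal AOIs. Signs turned for HetKO against Wt in Rgs19 on the LFD (0.35) and in Elof1 (0.10) and Cort (0.19) on the HFD, all perivenous, for Rgs19 between zones in HetKO HFD (0.63), and for the diet in Elof1 (-0.29) and Cort (-0.19) in HetKO periportal AOIs. Dividing by the negative probe called 740, 454, 1792 and 2930 genes between diets in HetKO perivenous, HetKO periportal, Wt perivenous and Wt periportal AOIs, 1, 0, 2 and 0 of them higher, against 15 of 114, 7 of 81, 330 of 897 and 418 of 968 in the scaled values, and shifted the median of all genes by -0.40, -0.33, -0.66 and -0.84. It turned Hikeshi in HFD periportal (0.0049) and Cort in HFD perivenous AOIs of HetKO against Wt (0.065), and Hikeshi (-0.054), Rgs19 (-0.12) and Cort (-0.010) between zones in Wt LFD. Subtracting the probe shifted that median by -0.48, -0.37, -1.11 and -1.13 in the same order. It called 488 (71 higher) in HetKO perivenous and 9 in HetKO periportal AOIs between diets, 1129 (84 higher) and 1235 (66 higher) in Wt perivenous and periportal AOIs, and 43 between zones in HetKO HFD, 87 in Wt LFD and 11 in Wt HFD.

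DESeq2 called 1 gene in LFD periportal AOIs of HetKO against Wt and 5 in each zone on the HFD. In 1 fit of all groups 2 and 4 genes were called between diets in HetKO perivenous and periportal AOIs. With pseudocount 10, 550 and 565 were called in Wt perivenous and periportal AOIs, and with the filter of 48 AOIs, which tested 2908 genes, 586 and 577. With the median AOI, Rgs19 turned in LFD perivenous (0.14) and HFD periportal (-0.30) AOIs of HetKO against Wt and between zones in HetKO HFD (0.30) and Wt LFD (-0.14). Without the AOIs on the other plate it turned in LFD perivenous AOIs (0.030). The cause of these changes was not tested.

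The adjusted p of Rgs19 between the zones of HetKO LFD mice ranged from 0.0069 to 1.0, and was 0.51 in 1 fit of all groups, 0.53 without the replicate block, 0.26 after subtraction of the probe and 0.056 in DESeq2. Leaving out 1 mouse, calls ranged from 68 to 195, 20 to 156, 123 to 1461 and 543 to 1481 between diets (HetKO perivenous, HetKO periportal, Wt perivenous, Wt periportal). They ranged from 0 to 418 and 0 to 411 for HetKO against Wt on the HFD (perivenous, periportal), both highest without Wt HFD 1, and from 0 to 0 and 0 to 1 on the LFD. Between zones they ranged from 115 to 128 in HetKO HFD, 132 to 149 in HetKO LFD, 69 to 94 in Wt HFD and 163 to 193 in Wt LFD. Small differences changed sign, and their ranges were -0.20 to 0.066 for Rgs19 in LFD perivenous, -0.10 to 0.28 for Rgs19 in HFD periportal and -0.54 to 0.083 for Cort in HFD perivenous AOIs of HetKO against Wt, and between zones -0.16 to 0.014 for Cort in HetKO LFD, -0.049 to 0.15 for Cort in Wt HFD and -0.62 to 0.37 for Rgs19 in HetKO HFD.

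The labels do not say whether mouse numbers match across groups, so the numbers were not treated as pairs. Of 48 same-numbered pairs 14 correlated above 0.1 (r -0.59 to 0.48), and 24 of 96 means correlated best with their own number. For HetKO and Wt mice of 1 diet, r of numbers 1 to 4 was 0.48, 0.05, -0.02 and 0.35 in HFD perivenous AOIs. It was 0.36, -0.10, -0.03 and 0.38 in HFD periportal, -0.05, 0.18, 0.31 and 0.40 in LFD perivenous and -0.17, 0.09, 0.17 and 0.47 in LFD periportal AOIs. Whether the numbers pair HetKO and Wt mice of a diet was not settled. With the mouse number as a replicate block, calls were 145 and 141 for HetKO against Wt on the HFD (perivenous, periportal), 0 on the LFD, and 118, 82, 50 and 718 between diets (HetKO perivenous, HetKO periportal, Wt perivenous, Wt periportal). Between zones, where the mouse is the block, 19 genes were called in Wt HFD without the block.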
